A study of Mus musculus with 42 samples.

Results

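Egr1, its corepressors Nab1 and Nab2, and 7 other genes of the immediate early response (Fos, Jun, Junb, Klf6, Ier2, Ier3 and Ier5) were followed through an RNA immunoprecipitation of Tnrc6a in mouse embryonic stem cells. The genes were chosen by name, with earlier results of these data known. Each has a single row among the 18825 genes counted in experiment 1 and the 19866 genes counted in experiment 2. Egr1 and Nab2 entered because they are reported TRIM71 targets. Ier5 was selected for its difference between the Trim71 and Ago2 knockouts, so its values in experiment 2 that involve a knockout are given below as a description, with no test. All 10 genes passed the filter on low counts in both experiments.

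All cells were 129S6/SvEvTac embryonic stem cells that carry the GFP_5xT71BS reporter and a stably transfected FLAG-Cas9 with blasticidin resistance, and the controls carry both as well. Experiment 1 compared untagged cells, cells with an HA-AVI tag on Tnrc6a, and tagged cells labelled Trim71-/-. Experiment 2 compared the same genotypes and tagged cells labelled Ago2-/-. These groups are called untagged, tagged, Trim71KO and Ago2KO here. The cells grew on gelatin with LIF and serum to confluency in triplicate dishes, lysates were bound to anti-HA beads, and total RNA of the lysate (input) and of the beads (IP) was sequenced, with 3 libraries per group. Whether a genotype is a single clone is not given in the sources used here.

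Total counts ran from 12587257 to 23657840 per library in experiment 1 and from 16296447 to 21026552 in experiment 2. Among all pairs of replicates, the chi-square per gene was 2.87 to 64.1, so no library repeated another within sampling noise. All 8 stem cell markers, Pou5f1 and Nanog among them, were present in every input group, with group means of 438.54 CPM or more. CPM here are counts relative to the TMM-adjusted library size, on the usual scale, where TMM is edgeR's normalization between libraries. Summed CPM of 4 primitive endoderm markers with a row in both tables lay between 8.86 and 51.2 per input group in experiment 1 and between 5.81 and 18.3 in experiment 2 (Foxa2, a further marker, has a row in experiment 1 alone). Those of 3 fibroblast markers, Col1a1, Thy1 and Pdgfrb, lay between 31.9 and 68.9 in experiment 1 and between 48.3 and 60.6 in experiment 2. Col1a2 and Col3a1, further fibroblast markers, have no row. The part of either list in any result was not tested. Tnrc6a RNA was 294-fold higher in IP than in input of tagged cells in experiment 1 and 206-fold higher in experiment 2, against 0.907-fold and 0.863-fold in untagged cells. In Trim71KO cells of experiment 1 it was 162-fold, a log2 difference from tagged cells of -0.86 (SE 0.24, adjusted p = 0.0476, edgeR). Tnrc6a input was higher there by 0.48 (SE 0.17, adjusted p = 0.0380, edgeR). In experiment 2 it was 157-fold in Trim71KO and 181-fold in Ago2KO cells, with no called difference from tagged cells. The part of this in any result was not tested. Ago2 RNA was lower in the Ago2KO input by 1.12 on the log2 scale (SE 0.10, adjusted p = 2.52e-08, edgeR). The RNA of Trim71 itself did not fall with the label Trim71KO: its input level was higher than in tagged cells by a log2 difference of 0.23 (SE 0.09, adjusted p = 0.0437, edgeR) in experiment 1 and 0.42 (SE 0.08, adjusted p = 0.000411) in experiment 2. The RNA level therefore does not check that label, and Trim71KO stands for the libraries so labelled throughout.

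Immediate early genes are transcribed within minutes of serum, growth factors or stress, without new protein synthesis, and most of their mRNAs are short-lived. Egr1 is a zinc finger transcription factor of this group, and Nab1 and Nab2 bind it, and its relatives Egr2 and Egr3, to repress their targets; Nab2 is itself a target of Egr1 and so closes a feedback loop. Tnrc6a is a GW182 protein that Argonaute proteins, Ago2 among them, hold on miRNA-bound mRNAs, where it recruits deadenylases. TRIM71 binds RNA in stem cells and represses mRNAs carrying a hairpin in their 3' untranslated part.

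Promoter sequences are shown for the corepressors Nab1 and Nab2 and for Fos and Junb. Of the 10 members, 8 have an entry in the RefSeq promoter table of GRCm38.p6, which holds 250 bases before to 50 after a gene's start. The Nab1 window (chr1:52500399-52500698, minus strand) carries 3 matches to an EGR site, GCGNGGGCG on either strand, and these matches are in capitals.

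Nab1: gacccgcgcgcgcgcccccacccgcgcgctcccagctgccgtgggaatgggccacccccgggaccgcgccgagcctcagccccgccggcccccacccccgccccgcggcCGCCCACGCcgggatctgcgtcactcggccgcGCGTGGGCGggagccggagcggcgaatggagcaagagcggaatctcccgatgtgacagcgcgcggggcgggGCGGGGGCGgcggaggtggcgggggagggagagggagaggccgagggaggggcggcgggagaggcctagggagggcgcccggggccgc

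Counted from the first base, the matches lie at bases 110 to 118 (on the other strand), 142 to 150 and 213 to 221. Of the 32851 promoters in the table, 5.55% hold at least 1 such match, and no other member with an entry does. The window of the other corepressor, Nab2 (chr10:127666654-127666953, minus strand), stands beside it with no match to any motif searched.

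Nab2: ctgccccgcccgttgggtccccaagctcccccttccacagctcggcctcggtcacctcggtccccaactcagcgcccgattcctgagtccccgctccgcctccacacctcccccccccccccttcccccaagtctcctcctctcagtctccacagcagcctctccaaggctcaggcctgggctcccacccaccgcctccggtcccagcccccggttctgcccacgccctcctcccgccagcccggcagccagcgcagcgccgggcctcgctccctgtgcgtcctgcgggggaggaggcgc

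Fos (chr12:85473640-85473939, plus strand) and Junb (chr8:84978699-84978998, minus strand), both AP-1 subunits, are shown for their cyclic AMP response element cores, TGACG, and for TATAAA, the letters of a TATA box, in capitals.

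Fos: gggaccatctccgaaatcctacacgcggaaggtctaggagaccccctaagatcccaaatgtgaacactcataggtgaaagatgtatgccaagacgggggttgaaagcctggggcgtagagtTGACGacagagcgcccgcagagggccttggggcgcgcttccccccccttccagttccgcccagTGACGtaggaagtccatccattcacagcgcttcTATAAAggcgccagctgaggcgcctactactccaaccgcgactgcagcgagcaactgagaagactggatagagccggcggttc
Junb: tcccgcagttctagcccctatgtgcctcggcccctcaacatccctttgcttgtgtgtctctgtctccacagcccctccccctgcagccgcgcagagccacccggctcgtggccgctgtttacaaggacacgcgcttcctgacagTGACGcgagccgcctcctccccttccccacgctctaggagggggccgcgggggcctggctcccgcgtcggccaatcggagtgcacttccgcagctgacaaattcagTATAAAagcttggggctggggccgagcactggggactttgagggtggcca

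This core has 2 matches in Fos, at bases 122 to 126 and 185 to 189, and 1 in Junb, at bases 145 to 149. Nab1 holds it once too, on the other strand at bases 128 to 132, left in lower case above. TATAAA lies at bases 218 to 223 in Fos, at -33 from the start given in the table, and at bases 251 to 256 in Junb, where it begins at that start and not before it, so this table does not place it where a TATA box would lie. On either strand, TGACG is found in 20.8% of all promoters in the table and TATAAA in 13.6%. The full response element TGACGTCA (1.79% of promoters), the AP-1 site TGANTCA (7.81%) and the CArG box bound by serum response factor (1.63%) have no match in the windows of the 8 members. A match is a run of letters, and binding was not measured here.

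Levels in the input of untagged cells spanned the range from abundant to scarce once they were set per kilobase of the authors' gene length. Ier2 was highest in both experiments, at 84.2 ± 1.00 CPM per kilobase (SD, n = 3) and 71.6 ± 7.90. In experiment 1, Egr1 (19.7 ± 2.85) and Junb (17.0 ± 1.09) came next and did not differ beyond their SDs. Nab2 followed at 9.11 ± 0.36. Nab1 (5.43 ± 0.40), Ier3 (5.19 ± 1.15) and Klf6 (4.81 ± 0.22) formed a further group whose SDs overlapped, ahead of Fos at 1.72 ± 0.27. Jun (0.956 ± 0.15) and Ier5 (0.813 ± 0.13) were lowest, with overlapping SDs. Experiment 2 kept Ier2 first and Jun and Ier5 last, while Ier3 stood higher, at 14.9 ± 0.30, and Egr1 lower and far less even, at 11.5 ± 7.77 CPM per kilobase.

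In input RNA, 2 of the 10 members were higher in tagged than in untagged cells in experiment 1, where 10.6% of all tested genes were called, and 0 of 10 in experiment 2, where 1.39% were. A call here is an adjusted p under 0.05 from edgeR's quasi-likelihood test, with Benjamini-Hochberg adjustment over all genes tested; at an unadjusted p under 0.05 the second count would be 1, and DESeq2 also called 1. Between Trim71KO and tagged input, 5 of 10 members were called in experiment 1 (1 higher, 4 lower, against 34% of all genes) and 5 of the 9 tested in experiment 2 (2 higher, 3 lower, against 27.2%). Ago2KO input differed from tagged input for 1 of 9 members, against 6.96% of all genes. Set against each other, the Trim71KO and Ago2KO inputs differed for 3 of 9, all lower in Trim71KO, against 28.4%.

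**Figure D1:**
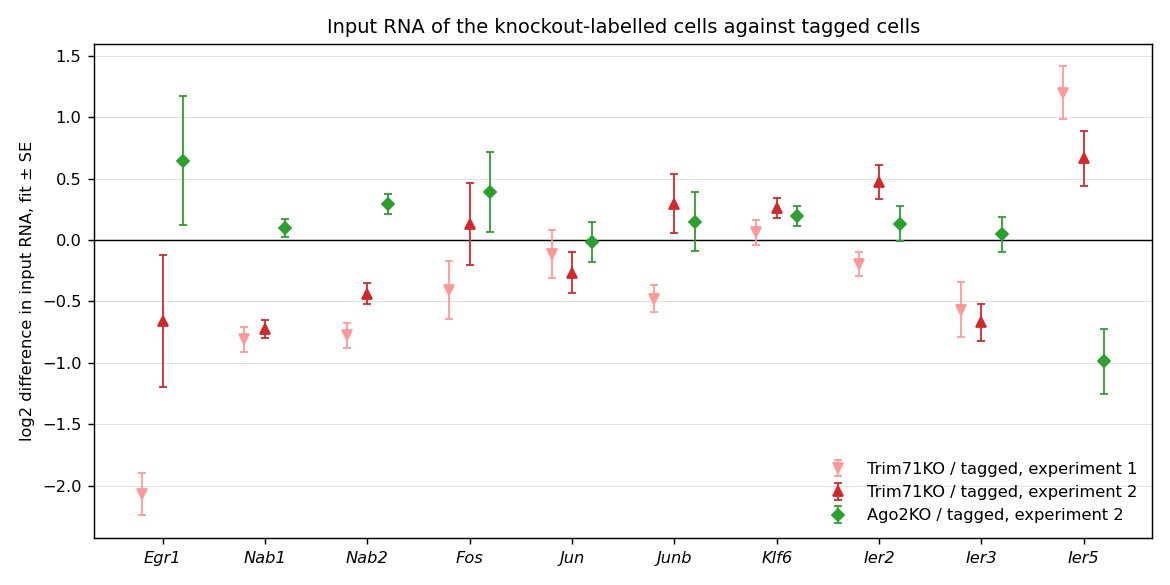
Log2 difference in input RNA of each member between knockout-labelled and tagged cells, with the standard error of the fit (3 libraries per group). Nab1, Nab2, Ier3 and Egr1 lie below 0 in both Trim71KO comparisons, with Egr1 at -2.07 in experiment 1 and at -0.66 with a wide error in experiment 2; Ier5 is a description in experiment 2.

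Enrichment compares how far a gene's RNA is concentrated in the IP: it is log2 of IP over input for 1 genotype less that of a reference genotype. For tag-specific enrichment the reference is the untagged cells, and 7 of 10 members were higher in experiment 1 and 5 of 10 in experiment 2, with 0 lower. Among all genes, 56.9% were called in experiment 1, 28.1% higher and 28.8% lower, and 27.7% in experiment 2, 18.9% higher and 8.77% lower. Scaling by library size alone turned that last split, from 68.4% to 36.5% of calls on the higher side, while the same number of members, 5, was called higher. The members' median log2 difference was 1.36 and 0.55, and that of all genes was -0.10 and -0.03. With same-numbered input and IP as a block, tag-specific enrichment was called for 7 members in each experiment. In experiment 2 that block called 5892 genes in place of 5479. Few members differed in enrichment between knockouts and tagged cells. Trim71-dependent enrichment, Trim71KO against tagged, was lower for 1 of 10 members in experiment 1. Among all genes 3.74% were called there, 3.47% lower and 0.272% higher. Experiment 2 called 0 of 9 members (1.49% of all genes, or 470 genes in place of 295 with the replicate number as a block). At an unadjusted p under 0.05 that count of 0 would be 2, and DESeq2 also called 0. Ago2-dependent enrichment was called for 0 of 9 (4.16% of all genes); 1 passed an unadjusted p under 0.05 and DESeq2 called 0. Enrichment differed between Trim71KO and Ago2KO for 1 of 9, against 11.8%.

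**Figure D2:**
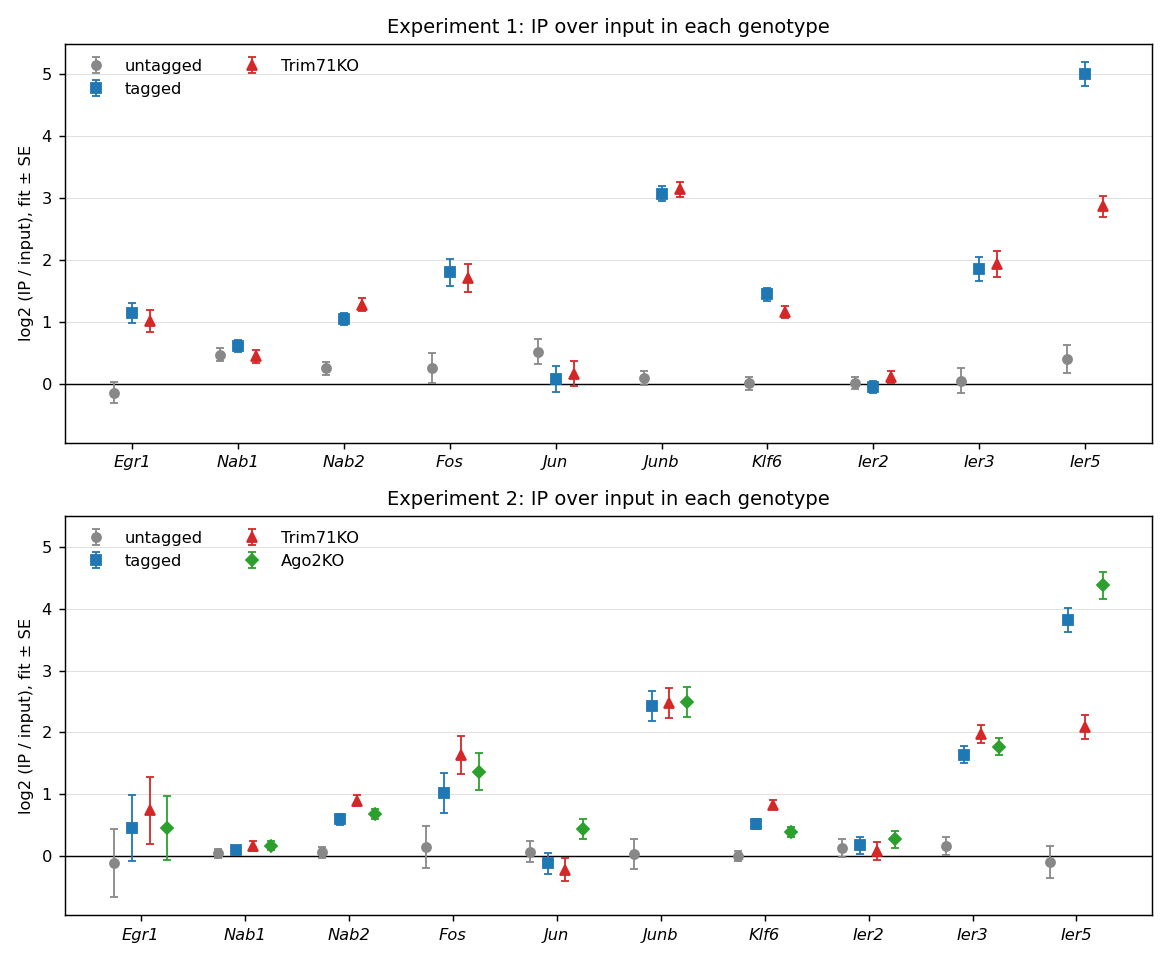
Log2 ratio of IP to input for the 10 members in each genotype, with the standard error of the fit (3 libraries per fraction). Junb, Ier3 and Ier5 stand far above 0 in every tagged genotype and near 0 in untagged cells, while Nab1, Jun and Ier2 lie near their untagged values.

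Egr1 was the member whose input RNA differed most between tagged and Trim71KO cells in experiment 1. Its input level was 79.4, 82.2 and 103 CPM in the 3 untagged libraries, 188, 113 and 146 in the tagged and 36.8, 31.5 and 38.2 in the Trim71KO libraries. The groups did not overlap. Tagged cells were higher than untagged cells by a log2 difference of 0.76 (SE 0.16, adjusted p = 0.00496), and Trim71KO cells were lower than tagged cells by -2.07 (SE 0.17, adjusted p = 7.1e-09, edgeR). Fewer cells that hold a transcript and less of it per cell cannot be told apart in bulk RNA.

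Experiment 2 gave another picture of Egr1, and libraries of a genotype differed from each other several-fold. What sets the 2 experiments apart was not tested. Input levels were 30.8, 31.7 and 91.6 CPM in untagged, 142, 58.8 and 47.6 in tagged, 89.8, 38.8 and 28.8 in Trim71KO and 169, 133 and 87.3 in Ago2KO libraries. All 4 groups overlapped, and the lowest Ago2KO library lay above 2 of the 3 libraries of each other genotype. Trim71KO was lower than tagged by -0.66 (SE 0.54, adjusted p = 0.399), which did not pass, and the value lay between -1.29 and -0.02 when 1 library was left out. Tagged and Trim71KO libraries of the same number deviated together over all genes in experiment 2, and Trim71KO stood at 0.632, 0.660 and 0.605 of the tagged library of the same number, lower in 3 of 3 pairs. A fit with the number as a block of these 2 genotypes alone, added after the data were seen, gave -0.66 (SE 0.36, adjusted p = 0.182, range over alternatives 0.141 to 0.989), which did not pass; its estimate of the spread is shared with the other genotypes. Against Ago2KO the difference was -1.30 (SE 0.54, adjusted p = 0.0718), and it passed without the first Trim71KO library (-1.92), with library size alone (-1.33), with the replicate block within fractions (-1.39) and with only the groups compared (-1.29), at adjusted p-values from 0.000584 to 0.241 over all alternatives. The difference of the Trim71KO effect between the experiments was 1.41 (SE 0.64, adjusted p = 0.108); without the first tagged input library of experiment 2 it was 2.04 (adjusted p = 0.0258).

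In the IP, Egr1 stood at 407, 252 and 330.5 CPM in tagged, 77.4, 66.0 and 72.7 in Trim71KO and 72.2, 72.8 and 95.1 in untagged libraries of experiment 1. That is 2.21-fold, 2.03-fold and 0.909-fold over input. Tag-specific enrichment was 1.28 (SE 0.23, adjusted p = 5.26e-05), and Trim71-dependent enrichment was -0.13 (SE 0.24, adjusted p = 0.872). Trim71KO cells thus had less Egr1 than tagged cells in both fractions, with no called difference in the ratio of the fractions. In experiment 2 untagged cells stood at 0.930-fold over input, tagged cells at 1.38-fold, Trim71KO cells at 1.68-fold and Ago2KO cells at 1.37-fold, and the tag-specific value of 0.56 (SE 0.76, adjusted p = 0.636) did not pass. The direction of that value turned when 1 library was left out, with a range from -0.16 to 1.26; with same-numbered input and IP as a block it was 0.54 and passed.

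**Figure D3:**
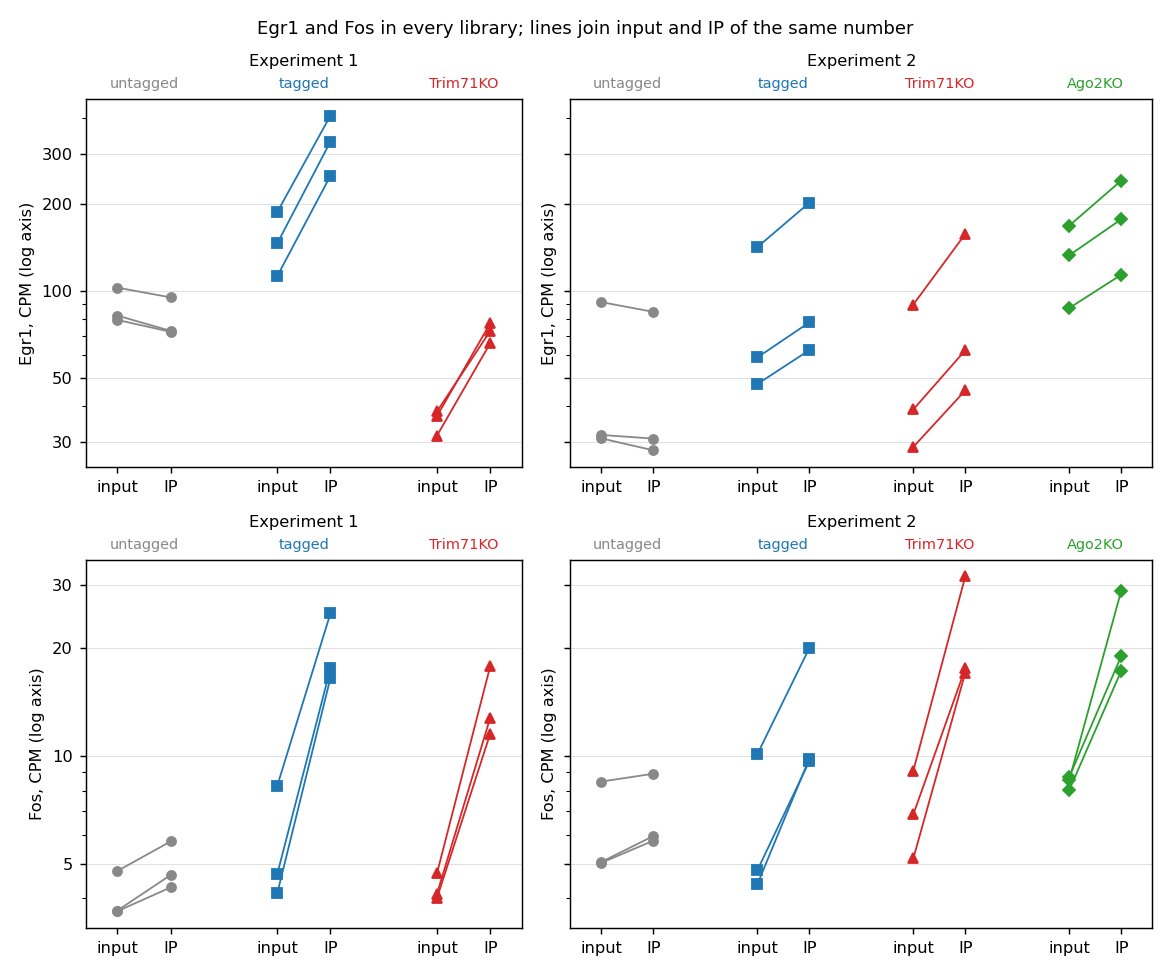
Egr1 and Fos in every library in CPM on a log axis, input beside IP, with lines between libraries of the same number. In experiment 2 the Egr1 lines of a genotype run nearly parallel, far apart in level and close in slope.

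The spread of Egr1 was shared by both fractions. Over both experiments, its coefficient of variation among the 3 input libraries of a genotype ran from 9.97% to 67.8%, with a median of 31.5%. In the IP it ran from 7.96% to 68.7%, with a median of 36.0%. Genes of experiment 2 with a mean log2 CPM of at least 2 had a median of 5.87% in input and 7.23% in IP. Their 95th percentile was 16.7% and 21.5%. Input levels of experiment 2 varied up to 3.12-fold within a genotype, in Trim71KO cells, and IP levels up to 3.49-fold. Ratios of IP to input of the same number varied less: from 0.909 to 0.971 in untagged, from 1.31 to 1.43 in tagged, from 1.57 to 1.76 in Trim71KO and from 1.31 to 1.43 in Ago2KO cells. Over both experiments the highest ratio of a genotype was at most 1.12 times the lowest. The input library with most Egr1 had the same number as the IP library with most Egr1 in 6 of 7 genotypes, and the lowest matched in 7 of 7. Among the other members the highest matched in 0 of 7 (Ier5) to 6 of 7 (Fos). Their lowest matched in 2 of 7 (Nab1 and Klf6) to 6 of 7 (Fos). Such matches were not counted over all genes. These 7 count each genotype once per experiment, here and below. Labels do not say that same-numbered fractions came from the same dish.

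Several other members were high in the same IP libraries as Egr1. The IP library with most Egr1 was also that with most Fos in 6 of 7 genotypes, with most Junb in 6 of 7 and with most Ier2 in 6 of 7. It was 5 of 7 for Jun, 4 of 7 for Nab2, Ier5 and Klf6, 3 of 7 for Ier3 and 2 of 7 for Nab1. The same count was not made over all genes. A trait of whole libraries therefore cannot be told apart here from a trait of these members. Among input libraries the counts were lower for Fos and Junb, at 4, and did not set Nab1 apart: Ier2, Jun and Nab1 had 5, Klf6 had 3, Nab2 and Ier5 had 2 and Ier3 had 1. Nab1 and Nab2 were far more even than Egr1, with a highest coefficient of variation in input of 7.42% and 10.2%.

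Nab1 was lower in Trim71KO input in both experiments. Its levels in experiment 1 were 20.9, 24.1 and 21.9 CPM in untagged, 32.1, 28.8 and 28.9 in tagged and 17.3, 16.6 and 17.4 in Trim71KO input. In experiment 2 they were 27.8, 25.5 and 29.0 in untagged, 34.6, 30.7 and 33.9 in tagged, 20.1, 20.4 and 19.6 in Trim71KO and 36.4, 34.0 and 35.7 in Ago2KO input. Every Trim71KO library lay below every library of the other genotypes in the same experiment. The log2 difference from tagged cells was -0.81 (SE 0.10, adjusted p = 2.66e-06) in experiment 1 and -0.73 (SE 0.08, adjusted p = 5.51e-08) in experiment 2, and the 2 values differed by 0.08 (SE 0.12, adjusted p = 0.682). Ago2KO differed from tagged by 0.10 (SE 0.07, adjusted p = 0.521), and Trim71KO from Ago2KO by -0.82 (SE 0.08, adjusted p = 6.57e-09). Tagged input was higher than untagged input by 0.43 (SE 0.10, adjusted p = 0.0086) in experiment 1; in experiment 2 the difference of 0.27 (SE 0.07, adjusted p = 0.0688) did not pass, although no tagged library overlapped the untagged ones, and it did with DESeq2 (0.28) and with only the groups compared (0.28).

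**Figure D4:**
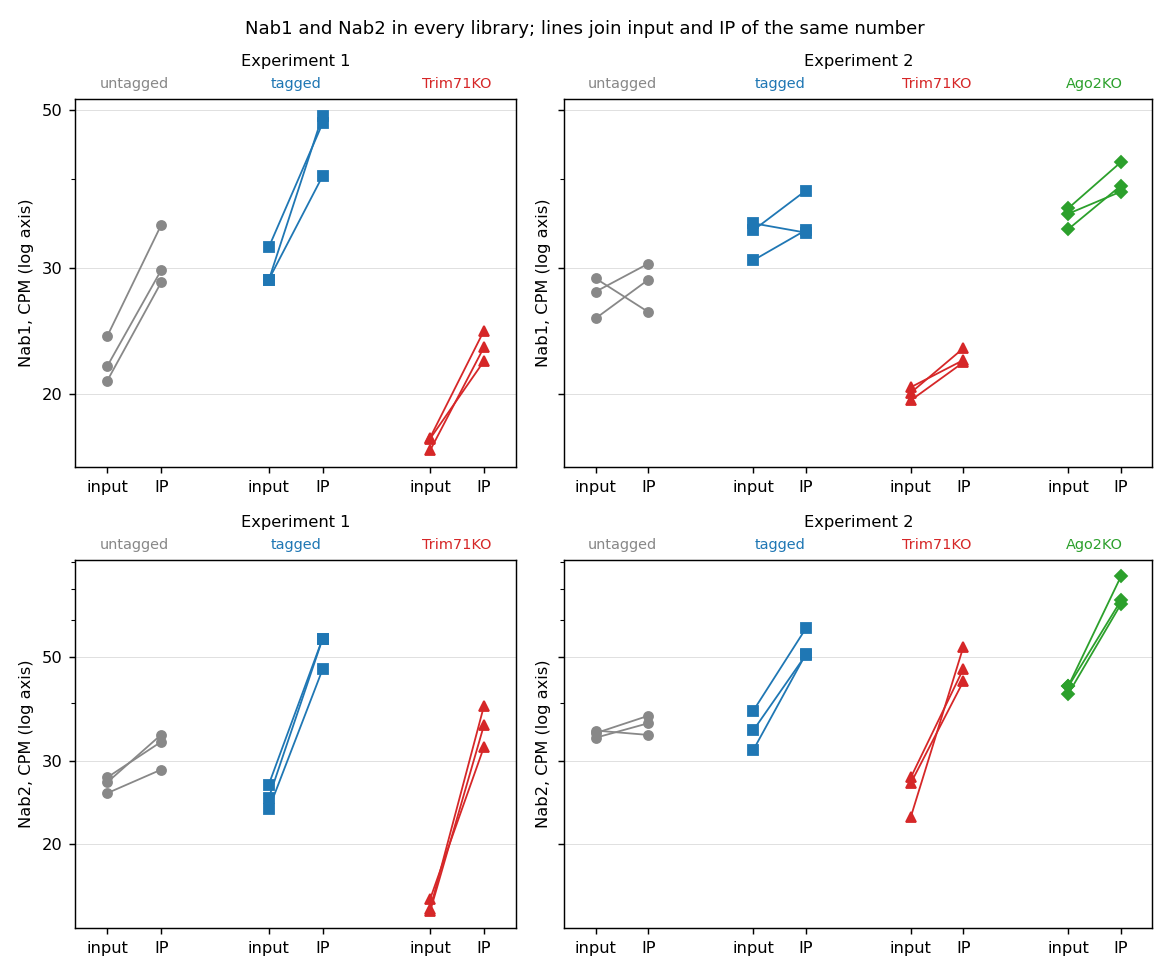
Nab1 and Nab2 in every library in CPM on a log axis, input beside IP, with lines between libraries of the same number. Trim71KO input lies below tagged input for both genes in both experiments, and Nab2 climbs from input to IP in each tagged genotype.

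Nab2, the corepressor that Egr1 itself induces, was also lower in Trim71KO input. It stood at 27.7, 27.0 and 25.6 CPM in untagged, 25.0, 23.7 and 26.7 in tagged and 14.5, 15.2 and 14.3 in Trim71KO libraries of experiment 1. The corresponding levels in experiment 2 were 33.7, 34.9 and 34.4, then 38.4, 34.9 and 31.7, then 26.9, 27.7 and 22.8, with 43.4, 43.3 and 41.8 in Ago2KO. Trim71KO libraries were below, and Ago2KO libraries above, all other libraries of their experiment. Against tagged cells, Trim71KO was lower by -0.78 (SE 0.10, adjusted p = 4.93e-06) in experiment 1 and -0.44 (SE 0.09, adjusted p = 0.0003) in experiment 2. The difference between these values, 0.33 (SE 0.13, adjusted p = 0.0621), did not pass; it did without the first tagged input library (0.40) or the third Trim71KO input library of experiment 2 (0.42), with RLE size factors (0.35) and with DESeq2 (0.36).

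Ago2KO input was higher in Nab2 than tagged input by 0.29 (SE 0.08, adjusted p = 0.0301), and Trim71KO was lower than Ago2KO by -0.73 (SE 0.08, adjusted p = 2.53e-07). The first of these calls was lost without the second (0.29) or the third tagged library (0.22). It was also lost without the first (0.27), the second (0.29) or the third Ago2KO library (0.31) and with library size alone (0.26), and its adjusted p over all alternatives ran from 0.00791 to 0.180. RefSeq genes of GRCm38.p6 place Nab2 (chromosome 10, 127660918 to 127666703) over 70 bases shared with its neighbour Stat6, so some reads there could belong to either gene if strand was not used in counting.

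The 2 corepressors parted in the IP. Nab2 in experiment 1 was 2.08-fold over input in tagged cells and 2.43-fold in Trim71KO cells, against 1.19-fold in untagged cells. Its tag-specific enrichment was 0.80 (SE 0.14, adjusted p = 3.53e-05) in experiment 1 and 0.53 (SE 0.12, adjusted p = 0.001) in experiment 2. Nab1 was 1.53-fold over input in tagged and 1.39-fold in untagged cells of experiment 1, and its tag-specific values of 0.14 (SE 0.14, adjusted p = 0.430) and 0.04 (SE 0.11, adjusted p = 0.802) did not pass. Neither corepressor had a called Trim71-dependent value: Nab2 gave 0.23 (SE 0.14, adjusted p = 0.492) and 0.30 (SE 0.12, adjusted p = 0.208), and Nab1 gave -0.16 (SE 0.14, adjusted p = 0.666) and 0.07 (SE 0.11, adjusted p = 0.816). The difference between Nab1 and Nab2 in the IP was not itself tested.

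Junb, an AP-1 subunit that is often a weaker activator than Jun, was the second most enriched member. Its IP level was 391, 270.4 and 351 CPM in tagged, 277, 242 and 244 in Trim71KO and 43.6, 42.0 and 39.5 in untagged libraries of experiment 1. In experiment 2 it was 319.6, 198 and 151 in tagged, 349, 249 and 245 in Trim71KO, 377, 202 and 187 in Ago2KO and 32.4, 42.1 and 51.4 in untagged libraries. Each IP library of a tagged genotype lay far above each untagged one, and the knockouts overlapped the tagged cells. Tag-specific enrichment was 2.98 (SE 0.16, adjusted p = 8.29e-14) and 2.40 (SE 0.34, adjusted p = 2.36e-06). In experiment 1 the fold over input was 8.43 in tagged cells and 8.85 in Trim71KO cells, and it was 5.41, 5.55 and 5.60 in tagged, Trim71KO and Ago2KO cells of experiment 2. Trim71-dependent values of 0.07 (SE 0.15, adjusted p = 0.894) and 0.04 (SE 0.33, adjusted p = 0.976) and an Ago2-dependent value of 0.05 (SE 0.33, adjusted p = 0.980) did not pass.

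Junb input was 29.0, 30.6 and 26.6 CPM in Trim71KO and 39.9, 42.3 and 37.9 in tagged libraries of experiment 1, a difference of -0.48 (SE 0.11, adjusted p = 0.00225). In experiment 2 the same comparison gave 0.30 (SE 0.24, adjusted p = 0.391), with 59.4, 46.4 and 45.8 in Trim71KO and 46.8, 40.4 and 36.3 in tagged libraries, which overlap; it passed with only the groups compared. The change between experiments was 0.77 (SE 0.30, adjusted p = 0.0572) and passed without the third tagged input library of experiment 1 (0.86) and with the replicate block within fractions (0.77).

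**Figure D5:**
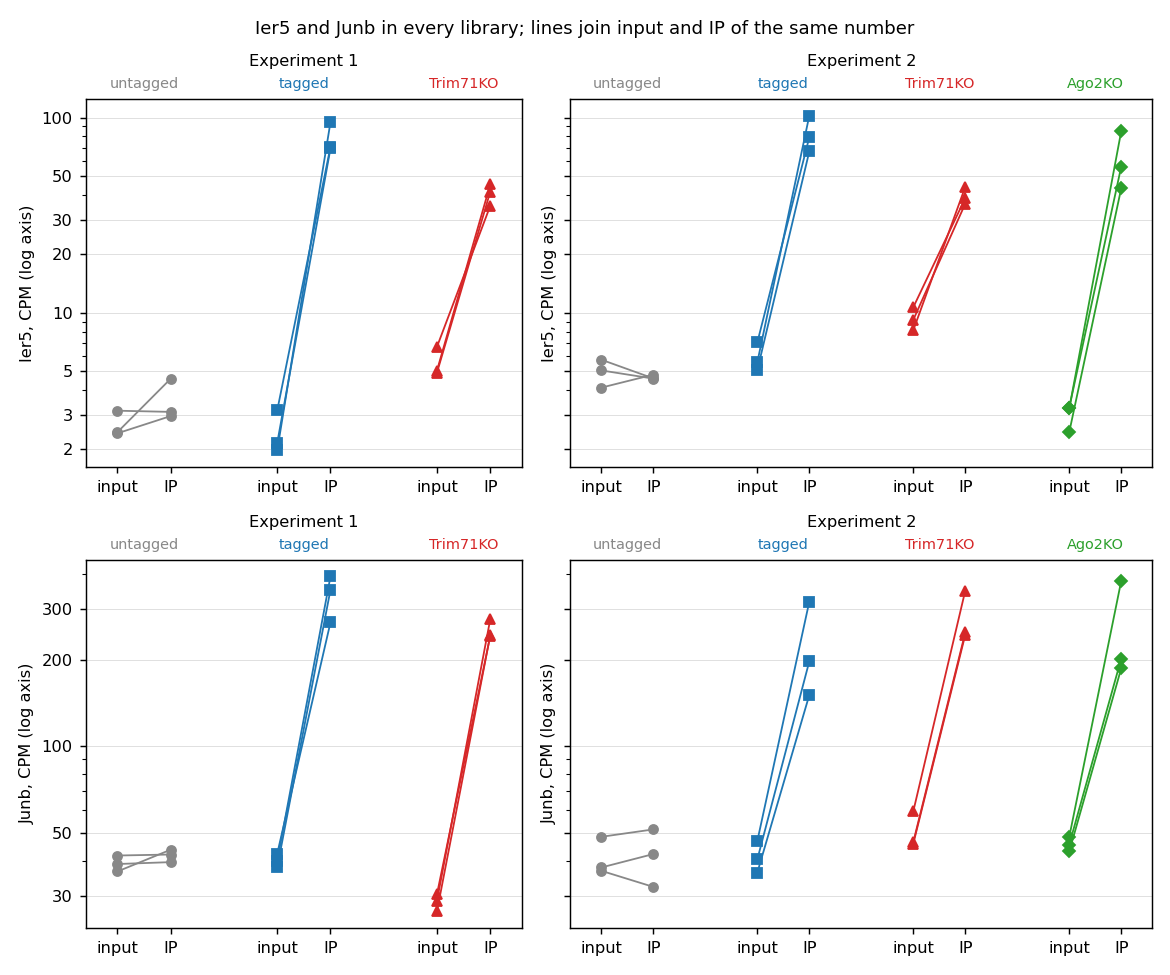
Ier5 and Junb in every library in CPM on a log axis, input beside IP, with lines between libraries of the same number. Both climb steeply in tagged genotypes; the Ier5 lines of Trim71KO start higher and end lower than those of tagged cells, and those of Ago2KO start lowest.

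Fos, the AP-1 subunit that pairs with Jun proteins, had few reads and was uneven. Input levels were 8.25, 4.13 and 4.67 CPM in tagged and 4.70, 4.01 and 4.12 in Trim71KO libraries of experiment 1, and ran from 4.38 to 10.1 over all input libraries of experiment 2. No input comparison of Fos was called. Its IP level was 25.1, 16.5 and 17.6 in tagged, 17.8, 11.5 and 12.8 in Trim71KO and 5.77, 4.65 and 4.29 in untagged libraries of experiment 1. Tag-specific enrichment was 1.54 (SE 0.32, adjusted p = 0.000271) there. In experiment 2 it was 0.87 (SE 0.47, adjusted p = 0.184), which did not pass with all libraries but did without the first tagged input library (1.36), the one with 10.1 CPM, and with same-numbered input and IP as a block (0.88). The fold over input in experiment 2 was 1.11 for untagged, 2.03 for tagged, 3.12 for Trim71KO and 2.58 for Ago2KO cells, and the knockout values of 0.62 (SE 0.44, adjusted p = 0.552) and 0.35 (SE 0.44, adjusted p = 0.836) did not pass.

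Jun showed no called difference in any comparison. Input levels ran from 2.74 to 4.74 CPM in experiment 1 and from 3.32 to 5.23 in experiment 2, and IP levels from 3.33 to 4.95 and from 2.62 to 7.23. Tag-specific values were -0.44 (SE 0.29, adjusted p = 0.202) and -0.18 (SE 0.24, adjusted p = 0.623), and the difference of Jun from its AP-1 partners was not tested. The IP libraries of Ago2KO cells, at 7.23, 5.51 and 6.05 CPM, lay above the Trim71KO ones, at 4.31, 3.21 and 2.62. Enrichment of Jun in Trim71KO against Ago2KO was -0.65 (SE 0.24, adjusted p = 0.0848), and it passed without the first Trim71KO IP library (-0.90) and with same-numbered input and IP as a block (-0.64).

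Klf6, a zinc finger factor of the Krüppel-like family, was even between dishes and enriched in the IP. Its IP level was 62.1, 56.9 and 63.3 CPM in tagged, 58.0, 51.3 and 46.7 in Trim71KO and 21.3, 23.3 and 19.2 in untagged libraries of experiment 1. Experiment 2 had 42.5, 41.4 and 40.2 in tagged, 64.5, 60.5 and 59.8 in Trim71KO, 46.8, 43.4 and 39.5 in Ago2KO and 34.0, 32.3 and 28.6 in untagged IP. Trim71KO thus had the highest Klf6 of all IP groups in experiment 2, with no overlap, while in experiment 1 it overlapped the tagged cells. Tag-specific enrichment was 1.44 (SE 0.14, adjusted p = 7.56e-09) and 0.53 (SE 0.11, adjusted p = 0.000746).

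Klf6 enrichment was higher in Trim71KO than in Ago2KO cells by 0.45 (SE 0.11, adjusted p = 0.00781), the only called value of the 9 members tested in that comparison. Against tagged cells the Trim71-dependent value was 0.31 (SE 0.11, adjusted p = 0.167) in experiment 2 and -0.29 (SE 0.14, adjusted p = 0.333) in experiment 1, and neither passed. The change between the experiments, 0.61 (SE 0.18, adjusted p = 0.117), passed without the first Trim71KO IP library of experiment 1 (0.70). In input, Klf6 was higher in Trim71KO than in tagged cells of experiment 2 by 0.26 (SE 0.08, adjusted p = 0.0155), at 36.5, 32.7 and 34.3 against 29.1, 30.5 and 26.7 CPM. This call was lost without the third tagged (0.21) or the first Trim71KO input library (0.23), and with library size alone (0.20).

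Ier2, a nuclear protein of the early response and the most abundant member per kilobase, was not enriched with the tag. IP levels in experiment 1 were 155, 143 and 119 CPM in tagged and 134, 131 and 126 in untagged libraries, and the fold over input of tagged cells was 0.970 there and 1.13 in experiment 2. Tag-specific values of -0.06 (SE 0.14, adjusted p = 0.730) and 0.05 (SE 0.20, adjusted p = 0.894) did not pass. Its input RNA behaved differently in the 2 experiments. Trim71KO input had 129, 129 and 118 CPM against 125, 159 and 145 in tagged cells of experiment 1 (-0.19, SE 0.10, adjusted p = 0.131), and 157, 139 and 118 against 110.0, 105 and 83.9 in experiment 2 (0.47, SE 0.14, adjusted p = 0.0138). The change of 0.66 between the experiments passed (SE 0.19, adjusted p = 0.00871), the only called value of the 9 members tested, where 22.8% of all genes were called.

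The Ier2 call in experiment 2 was lost without the third tagged (0.36) or the first Trim71KO input library (0.38). In experiment 1 the difference of opposite sign passed without the first tagged library (-0.31). Against Ago2KO, Trim71KO input was higher by 0.34 (SE 0.14, adjusted p = 0.0737), which passed without the third Trim71KO library (0.44), with the replicate block within fractions (0.34) and with only the groups compared (0.35).

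Ier3, a stress-induced regulator of cell survival, was enriched with the tag and lower in Trim71KO input. Its input level in experiment 2 was 16.8, 20.7 and 19.3 CPM in tagged, 9.24, 12.7 and 13.7 in Trim71KO, 15.2, 19.0 and 24.2 in Ago2KO and 16.7, 17.2 and 16.6 in untagged libraries. All Trim71KO libraries lay below all others. Trim71KO was lower than tagged by -0.67 (SE 0.15, adjusted p = 0.00132) and than Ago2KO by -0.72 (SE 0.15, adjusted p = 0.000638). In experiment 1, with 3.25, 2.60 and 3.32 against 3.69, 5.39 and 4.46 CPM, the difference of -0.57 (SE 0.22, adjusted p = 0.0518) did not pass, but did without the first tagged library (-0.71), with the replicate block within fractions (-0.57) and with DESeq2 (-0.58). The change between experiments was -0.11 (SE 0.29, adjusted p = 0.827).

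Ier3 IP levels were 62.8, 60.0 and 54.4 CPM in tagged and 20.2, 20.1 and 16.4 in untagged libraries of experiment 2. The fold over input of tagged cells was 3.62 in experiment 1 and 3.12 in experiment 2, and in Trim71KO cells it was 3.83 and 3.92. Tag-specific enrichment was 1.81 (SE 0.28, adjusted p = 9.09e-06) and 1.47 (SE 0.20, adjusted p = 1.38e-06). Trim71-dependent values of 0.08 (SE 0.29, adjusted p = 0.937) and 0.33 (SE 0.20, adjusted p = 0.458) did not pass.

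Ier5, an early gene that acts on heat shock factor through a phosphatase, was the least abundant member per kilobase in experiment 1 and the most enriched of all members. Input libraries of experiment 1 held 2.44, 3.14 and 2.41 CPM in untagged, 1.97, 3.15 and 2.15 in tagged and 5.05, 4.93 and 6.68 in Trim71KO cells, where the lowest rests on 32 counts. IP libraries held 4.59, 3.10 and 2.95, then 94.8, 70.8 and 69.5, then 45.4, 41.6 and 35.3. Trim71KO cells thus had more Ier5 RNA than tagged cells in every input library and less in every IP library. Tagged cells stood 32.2-fold over input, Trim71KO cells 7.30-fold and untagged cells 1.33-fold.

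In experiment 1, which holds no Ago2KO library, tag-specific enrichment was 4.60 (SE 0.30, adjusted p = 3.55e-12). Trim71-dependent enrichment was -2.14 (SE 0.26, adjusted p = 5.58e-06), the only called value of the 10 members in that comparison, and it lay between -2.31 and -1.90 when 1 library was left out. Among all genes 3.47% were lower and 0.272% higher in that comparison. Input RNA was higher in Trim71KO than in tagged cells by 1.20 (SE 0.21, adjusted p = 0.000156), a difference that is also part of the enrichment value, since input is its denominator. In the IP alone, the mean level was 78.4 ± 14.2 CPM in tagged and 40.8 ± 5.13 in Trim71KO libraries (SD, n = 3).

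Experiment 2 is a description for Ier5 in the knockouts. Its IP held 102, 79.4 and 67.1 CPM in tagged, 36.2, 38.7 and 44.2 in Trim71KO, 85.3, 43.5 and 56.1 in Ago2KO and 4.81, 4.59 and 4.60 in untagged libraries. Input held 5.58, 7.04 and 5.08, then 9.19, 10.7 and 8.13, then 3.23, 2.44 and 3.26, and 4.13, 5.06 and 5.74 in untagged cells. Trim71KO input was therefore above, and Ago2KO input below, all libraries of the other genotypes. The fold over input was 14.1 in tagged, 4.26 in Trim71KO, 20.8 in Ago2KO and 0.936 in untagged cells. Log2 differences in enrichment were -1.72 for Trim71KO against tagged, 0.56 for Ago2KO against tagged and -2.28 for Trim71KO against Ago2KO, and those in input were 0.66, -0.99 and 1.65. Tag-specific enrichment, which involves no knockout, was 3.91 (SE 0.33, adjusted p = 2.23e-10).

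Between the experiments, Trim71-dependent enrichment differed for 0 of the 9 tested members, where 0.0967% of all genes were called; 1 member passed an unadjusted p under 0.05 and DESeq2 called 0. For Ier5 the values were -2.14 and -1.72, with no test of the change.

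A list of 35 other immediate and delayed early genes, of which 34 have a row in each table, gives the setting. Tag-specific enrichment was higher for 27 and lower for 1 of the 34 tested in experiment 1, and higher for 21 and lower for 0 of the 33 tested in experiment 2, with medians of 2.05 and 0.98. Over all genes 28.1% were higher and 28.8% lower in experiment 1, and 18.9% and 8.77% in experiment 2. Btg2, an antiproliferative gene, had the smallest adjusted p in experiment 1 at 4.40 (SE 0.12, adjusted p = 3.2e-18), followed by Zfp36, which codes for an mRNA decay factor, at 3.52, and Dusp1, a phosphatase of MAP kinases, at 2.79. In experiment 2, Mcl1 (1.71), Klf2 (2.42) and Zfp36 (2.88) led. Myc was the gene that was lower in experiment 1, at -0.81 (SE 0.16, adjusted p = 0.000168). Strong enrichment with the tag was thus found in many early genes besides Junb, Ier3 and Ier5.

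Within an experiment, differences in enrichment that involve a knockout were called for 2 to 9 of these other early genes. Trim71-dependent enrichment was lower for 3 of 34 in experiment 1, against 3.47% of all genes: Btg2 (-1.21), Trib1 (-0.96) and Mcl1 (-0.64). In experiment 2 it was higher for 3 of 33, namely Klf4 (0.38), Nr4a1 (0.50) and Zfp36l1 (0.60), and lower for 0, against 0.753% and 0.738% of all genes. Ago2-dependent enrichment was higher for Maff (0.57) and lower for Mcl1 (-0.44), 2 of 33 against 4.16%. Between Trim71KO and Ago2KO, 8 of 33 were higher and 1 lower, against 8.94% and 2.86% of all genes, led by Klf2 (1.03), Zfp36 (1.18) and Klf4 (0.48) on the higher side, with Maff (-0.45) lower. Between experiments the Trim71-dependent value was called for 0 of 34, against 0.0967%.

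Input RNA of the list differed between Trim71KO and tagged cells for 16 of 34 in experiment 1, 4 higher and 12 lower, and for 16 of 33 in experiment 2, 8 higher and 8 lower, against 34% and 27.2% of all genes. Sgk1, a serum-induced kinase, was higher in both, by 1.03 (SE 0.10, adjusted p = 3.26e-08) and 1.26 (SE 0.10, adjusted p = 8.63e-10), and Klf10 was lower in both, by -0.93 and -0.37. The change of Klf10 between the experiments, 0.56 (SE 0.13, adjusted p = 0.00225, edgeR), passed. Dusp6, a phosphatase of ERK, went from -0.68 in experiment 1 to 0.56 in experiment 2, and the change of 1.23 (SE 0.14, adjusted p = 9.59e-08) passed. Myc was higher in experiment 2 by 1.00 and its change between experiments was 1.35. In all, 10 of 34 had a called change between the experiments, 6 toward higher and 4 toward lower, against 22.8% of all genes. Those named by the rule toward lower were Plk2 (-0.82), Klf4 (-0.48) and Atf3 (-1.01). Further genes named by the rule in experiment 1 were Btg2 (0.88) and Klf4 (0.73), both higher, and Ccn1 (-1.52), which was lower with Dusp6. In experiment 2, Plk2 (-0.47) and Fosl2 (-1.27) were lower.

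Ago2KO input of the list differed from tagged input for 3 of 33, higher for Klf2 (0.79) and Sgk1 (0.35) and lower for Klf4 (-0.24), against 6.96% of all genes. Trim71KO and Ago2KO inputs differed for 17 of 33, 8 higher and 9 lower in Trim71KO, against 28.4%, with Sgk1 (0.91), Klf4 (0.49) and Myc (0.81) higher and Klf10 (-0.51), Fosl2 (-1.50) and Rhob (-1.05) lower. Tagged and untagged inputs differed for 2 of 34 in experiment 1, Dusp6 (0.33) and Zfp36 (-0.49), and for 2 of 33 in experiment 2, Jund (-0.45) and Sgk1 (-0.48), against 10.6% and 1.39% of all genes.

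Among the 6 factors that act at serum response elements upstream of Egr1 and Fos, tag-specific enrichment was higher for 6 in experiment 1 and for 4 in experiment 2, where 28.1% and 18.9% of all genes were higher. Elk4, an ETS partner of serum response factor, reached 5.21 (SE 0.17, adjusted p = 3.53e-17) and 3.95 (SE 0.22, adjusted p = 1.66e-13). Mrtfb, a coactivator of serum response factor, followed at 3.31 and 2.21. Elk4 enrichment was lower in Trim71KO than in tagged cells, by -1.36 (SE 0.16, adjusted p = 5.24e-06) and -0.93 (SE 0.21, adjusted p = 0.0205), and lower in Ago2KO by -1.15 (SE 0.21, adjusted p = 0.000966). Its input RNA was higher in Trim71KO in experiment 1 by 0.37 (SE 0.12, adjusted p = 0.0225) and was not called in experiment 2. Srf itself had a tag-specific value of 0.44 (SE 0.14, adjusted p = 0.00941) in experiment 1. Elk3 enrichment was lower in Trim71KO in experiment 1 (-0.76, SE 0.13, adjusted p = 0.000749), and that of Mrtfa higher in experiment 2 (0.64, SE 0.12, adjusted p = 0.00614). Trim71-dependent enrichment was called for 2 of 6 factors in each experiment, against 3.74% and 1.49% of all genes. Ago2-dependent enrichment was called for 1 of 6, against 4.16%. Between Trim71KO and Ago2KO it was 2 of 6, against 11.8%. The factors named here were chosen after their values were seen.

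Chd3 and Chd4, remodelling subunits of the NuRD complex, which Nab2 can recruit, were set beside the corepressors. Chd3 input was higher in Trim71KO than in tagged cells of experiment 1 by 0.72 (SE 0.13, adjusted p = 0.000143) and in Ago2KO of experiment 2 by 0.63 (SE 0.08, adjusted p = 6.95e-06). In experiment 1 it was also lower in tagged than in untagged cells, by -0.55 (SE 0.13, adjusted p = 0.00809). In Trim71KO against tagged input of experiment 2 it was not called (0.12, SE 0.08, adjusted p = 0.307), and the change between experiments was -0.61 (SE 0.15, adjusted p = 0.00259); against Ago2KO it was lower in Trim71KO, by -0.51 (SE 0.08, adjusted p = 1.87e-05). Chd4 input was not called in any comparison, and its tag-specific enrichment was lower in experiment 1, at -0.61 (SE 0.14, adjusted p = 0.00074). Of all genes, 34% were called in Trim71KO against tagged input of experiment 1. In Ago2KO against tagged input 6.96% were called. The results named for Chd3 and Chd4 were also chosen after their values were seen.

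Genes with the pattern most like 3 of the members were found by Pearson correlation of 14 group means of log2 CPM, centred within each experiment, among 12446 genes; groups share input and IP depth and normalization, and no p is attached. For Egr1 they were Zic2 (r = 0.956), Zfp951 (0.948), Gm11627, Ubxn2a and Fra10ac1. Nab2 was closest to a gene with no symbol, ENSMUSG00000085731 (0.995), then Cul1 (0.981), Pim1, ENSMUSG00000097125 and Zic5. Ier5 was closest to Mllt1 (0.989), Phf2 (0.986), Lats1, Zbtb7a and ENSMUSG00000114165. No other member was among the 5 genes closest to any of the 3.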

How the data were processed

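The authors deposited 1 table of raw counts per gene for each experiment. STAR 2.7.3a, bcl2fastq 2.20 and the builds GRCm38 and mm10 are named in the submitters' processing notes; the counting tool, its use of strand and the annotation are not given in the sources used here. Gene lengths, another deposited column, carry a name that refers to QuasR per the file headers. The 42 deposited RPKM columns were not used.

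Differences were tested on these counts by the quasi-likelihood F test of edgeR 4.0.16 (R 4.3.3, TMM, filterByExpr, 1 mean per group, 1 fit per experiment, Benjamini-Hochberg adjustment over 18772 and 19778 genes, threshold 0.05). Both experiments were fitted together over 18620 shared genes to test differences between them. SE is the log2 difference divided by the square root of F. The precision of the depth covers counting error only, and the p-values measure the spread between dishes, as the labels name triplicate dishes. The fit was tested on simulated data. Alternatives were RLE size factors, library size alone, no filter, DESeq2 1.42.0, only the groups compared, a replicate block and each library left out; a block of tagged and Trim71KO libraries of experiment 2 alone was added after the data were seen. Promoters and gene spans came from RefSeq tables of GRCm38.p6.

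Same-numbered libraries were checked by the correlation of their deviations from group means. Between tagged and Trim71KO cells of experiment 2 it was 0.206, 0.273 and 0.299 in input and 0.318, 0.183 and 0.333 in IP. All 3 values in each fraction were over 0.1, the rule for pairing used here. No label states that the numbers pair the samples, and the main fit holds no such block. Of the other pairs of genotypes within a fraction, 0 had all 3 values over 0.1, although tagged and Ago2KO IP of experiment 2 reached 0.577, 0.0657 and 0.416.

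The members and gene lists were chosen with earlier results of these data known. Named genes were the members, the 3 targeted genes, from the early list up to 3 called genes each way per comparison with the smallest adjusted p and a mean log2 CPM of at least 2, and the 5 genes most like Egr1, Nab2 and Ier5. Members of the upstream and NuRD lists are named beyond that rule, chosen after their values were seen.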

Additional observations from a re-analysis of the deposited data

Results flagged for a closer look

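Tests of the difference between 2 effects passed for 5 results of the members. For input RNA of Trim71KO against Ago2KO this is 3 of 9 members, against 28.4% of all genes. For enrichment between the same groups it is 1 of 9, against 11.8%. For the Trim71KO effect on input RNA between experiments it is 1 of 9, against 22.8%. In experiment 2 the Trim71KO and Ago2KO effects on input RNA differed for Nab1 (log2 difference -0.82, adjusted p = 6.57e-09), Nab2 (-0.73, adjusted p = 2.53e-07) and Ier3 (-0.72, adjusted p = 0.000638), each lower in all 3 Trim71KO libraries than in all 3 Ago2KO libraries. Klf6 enrichment differed between Trim71KO and Ago2KO by 0.45 (adjusted p = 0.00781), and its 3 Trim71KO IP libraries lay above all Ago2KO ones. For Ier2 the Trim71KO effect on input RNA was larger in experiment 2 than in experiment 1 by 0.66 (adjusted p = 0.00871). All p-values are from edgeR, and what sets these differences was not tested. Groups hold 3 libraries, too few to look for a single library far from the others.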

How the results depend on the processing

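Of 2368 values of members under an alternative, 2209 were unchanged, 11 lost a call, 28 gained one, 120 moved and 0 reversed. For tested values, unchanged means the same direction and side of the threshold. Moved means that the direction turned without a call, and reversed that it turned with a call. Untested Ier5 values count as unchanged if they stayed within the SE of the main value, moved if beyond it, and reversed if the direction turned. Counts below are of genes called unless members are named, and the cause of a change was not tested. With library size alone, Ago2KO against tagged input called 0 members, Trim71-dependent enrichment in experiment 2 called 489, and the median log2 difference of all genes went from -0.03 to -0.24 in tag-specific and from 0.00 to 0.11 in Ago2-dependent enrichment of experiment 2, and from -0.01 to -0.12 for the Trim71KO effect on input between experiments. Under RLE size factors that last comparison called 2 members. With DESeq2, tagged against untagged input in experiment 2 called 1 member, Trim71-dependent enrichment in experiment 2 called 552, and between experiments 2 members (input) and 265 genes (enrichment) were called. Fitting only the groups compared gave, in experiment 2, 1 member and 497 genes for tagged against untagged input, 2481 for Ago2KO against tagged input, 5 members for Trim71KO against Ago2KO input and 136 for Trim71-dependent enrichment, and 4 for its change between experiments.

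With a replicate block within each fraction, Trim71-dependent enrichment in experiment 2 called 470, Trim71KO against Ago2KO input called 5 members, and between experiments 2 members (input) and 94 genes (enrichment) were called. For tagged against Trim71KO in experiment 2, where the numbers met the pairing rule, no call of a member changed. With a replicate block of tagged and Trim71KO alone, added after the data were seen, no call of a member changed either, and Trim71-dependent enrichment in experiment 2 called 453. With the replicate block pairing same-numbered input and IP, Trim71-dependent enrichment in experiment 2 called 522 and its change between experiments 79, and Trim71KO against Ago2KO enrichment called 3 members. This block also called tag-specific enrichment in experiment 2 for Egr1 (0.54, adjusted p = 3.58e-05, range over alternatives 3.58e-05 to 0.915) and Fos (0.88, adjusted p = 0.00171, range 0.00171 to 0.545). It added Egr1 (0.28, adjusted p = 0.0212, range 0.0212 to 0.998) and Jun (-0.64, adjusted p = 0.0457, range 0.0173 to 0.245) between Trim71KO and Ago2KO enrichment; the numbers met the pairing rule only between input and IP of tagged cells in experiment 2 (0.104, 0.139 and 0.183).

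Leaving out 1 library in turn gave these ranges. In experiment 1, tagged against untagged input called 722 (without the second tagged input library) to 3053 (without the first), and Trim71-dependent enrichment 339 (without the third Trim71KO input library) to 1435 (without the first Trim71KO IP library). In experiment 2, tagged against untagged input called 154 to 195, Trim71KO against tagged input 3 to 5 members, Ago2KO against tagged input 0 to 1 members and 774 to 922 genes, Trim71-dependent enrichment 98 (without the second Trim71KO IP library) to 562 (without the first tagged IP library), and Trim71KO against Ago2KO enrichment 1 to 2 members. Between experiments the input effect called 1 to 3 members, and the enrichment 0 to 1 members and 6 to 1167 genes, the last without the first Trim71KO IP library of experiment 1. Without a block, the spread of Egr1 and Fos between libraries of experiment 2 set the precision of their values, with standard errors of 0.32 to 0.76 in the comparisons within it.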
